A study of Homo sapiens with 10 samples.

Results

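The peroxisome proliferator-activated receptors and a set of their lipid target genes were followed in cell lines that had each been raised from a soft agar colony of BEAS-2B, an immortalized line of human bronchial epithelial cells. The 10 genes were PPARA, PPARD and PPARG, which encode the receptors, and the 7 targets ANGPTL4, PDK4, CPT1A, PLIN2, FABP4, ACADVL and SLC27A2. They were picked by symbol out of 28869 transcript clusters, of which 19310 had exactly 1 gene symbol in the array annotation, and each had a single cluster. ANGPTL4 had been picked because it lay above the parental cells in every soft agar group, so its distance from the parental cells is given as a description, and the question put to the other genes was whether they followed it.

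The arrays were Affymetrix Human Gene 1.0 ST, with 1 array for the RNA of each of 10 cell lines. Cr_large and Cr_small were 3 lines each from large and small colonies of BEAS-2B cells that had been kept in 0.5 μM potassium chromate, a source of hexavalent chromium, for 30 days. The 3 control lines came from colonies that arose spontaneously from cells without chromate. Colonies grew for 3 weeks in soft agar, where only cells that do not need attachment multiply, and each line was expanded in monolayer from 1 colony, without chromate. The parental cells, on 1 array, were BEAS-2B cells that had not been through soft agar. The treatment text in the labels was the same for all 10 arrays, so the groups rest on the array titles and on the study's own description. No repeat of the exposure is described, so the spread within a group is that between lines, and the P-values measure only that. Values are log2 intensities throughout.

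The receptors are nuclear receptors that pair with a retinoid X receptor, bind fatty acids and related lipids, and switch on genes for burning or storing fat. PPARA is best known from liver and heart, PPARG from adipose tissue, and PPARD is found in most tissues, epithelia included. ANGPTL4 is a secreted inhibitor of lipoprotein lipase and one of the most readily induced targets of all 3 receptors, but it also answers to low oxygen, glucocorticoids and TGF-beta.

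The stretch before each start of transcription was read for the letters that these regulators are known to bind, since ANGPTL4, PLIN2 and SLC27A2 carry the results below. RefSeq windows (GRCh38.p14) of 250 bases before to 50 bases after the start were matched for 9 of the 10 genes, 16 windows in all, 6 of them of PPARG. FABP4 was the gene without one. The PPAR response element, searched on both strands as AGGTCA repeated in the same direction with 1 base of any kind between the copies, was in 0 of the 16 windows and in 0.0228% of 35116 windows of all genes. A looser form, with AGGNCA in place of each copy, was in 0 of the 16 and in 0.31% of all. The half-site AGGTCA, which is part of the full element, was in 3 of the 16, all of PPARG, and in 13.8% of all. Of these 3 windows, 2 overlap and hold the same half-site. Of the core that hypoxia-inducible factors bind, only the form ACGTG was searched, which also lies inside the E-box CACGTG. It was in 4 of the 16 windows, those of ANGPTL4, PLIN2, ACADVL and 1 window of PPARG, and in 21.4% of all on either strand. The form GCGTG was not counted. TATAAA on the strand of the gene was in the ANGPTL4 window alone of the 16, at -29 from the start, and in 7.33% of all. These matches are letters in short windows and say nothing of binding, and elements farther from the start were not read.
The windows of the 3 genes are at chr19:8363905-8364204 on the plus strand for ANGPTL4, chr9:19127443-19127742 on the minus strand for PLIN2 and chr15:50181946-50182245 on the plus strand for SLC27A2. They are printed along the strand of the gene, with ACGTG on either strand and TATAAA in capitals.
ANGPTL4: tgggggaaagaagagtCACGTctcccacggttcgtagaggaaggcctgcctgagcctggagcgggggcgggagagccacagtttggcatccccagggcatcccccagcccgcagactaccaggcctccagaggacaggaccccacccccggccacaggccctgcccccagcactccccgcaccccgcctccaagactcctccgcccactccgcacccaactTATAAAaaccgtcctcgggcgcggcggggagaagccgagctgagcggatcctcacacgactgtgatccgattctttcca
PLIN2: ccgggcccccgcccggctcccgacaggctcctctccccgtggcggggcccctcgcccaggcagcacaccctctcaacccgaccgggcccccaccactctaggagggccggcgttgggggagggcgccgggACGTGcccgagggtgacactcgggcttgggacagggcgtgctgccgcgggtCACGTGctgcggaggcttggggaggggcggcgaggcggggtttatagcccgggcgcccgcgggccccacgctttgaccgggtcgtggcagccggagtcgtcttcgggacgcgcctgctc
SLC27A2: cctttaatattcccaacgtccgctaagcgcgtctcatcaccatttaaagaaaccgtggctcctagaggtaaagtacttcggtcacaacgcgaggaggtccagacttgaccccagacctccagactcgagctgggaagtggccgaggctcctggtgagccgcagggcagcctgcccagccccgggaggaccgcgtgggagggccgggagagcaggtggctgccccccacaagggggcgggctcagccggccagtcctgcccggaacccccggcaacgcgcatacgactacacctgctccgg
ANGPTL4 has 1 copy of ACGTG at -234, and PLIN2 has copies at -120, -69 and -68, where the last 2 are the strands of 1 E-box. SLC27A2 has no ACGTG in its window. The PLIN2 and SLC27A2 windows also hold GCGTG, which was not searched and is not in capitals.

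None of the 3 receptors passed the test between Cr and control lines. PPARA was at 6.13, 6.33 and 6.58 in Cr_large lines, 6.23, 6.27 and 6.33 in Cr_small lines, 6.46, 5.94 and 6.58 in control lines and 6.46 in parental cells. PPARD was at 7.44, 8.04 and 7.54 in Cr_large lines, 8.04, 7.74 and 7.78 in Cr_small lines, 7.91, 7.74 and 7.81 in control lines and 7.41 in parental cells. PPARG was at 4.91, 5.04 and 5.39 in Cr_large lines, 5.09, 5.04 and 4.96 in Cr_small lines, 5.47, 5.33 and 5.12 in control lines and 5.24 in parental cells. The Cr and control lines overlapped for all 3 receptors. PPARG was dim, with a mean of 5.16 over the 10 arrays, where 25% of all clusters had a mean below 4.92. The Cr lines differed from the control lines by -0.01 for PPARA (95% confidence interval -0.36 to 0.33), by -0.06 for PPARD (-0.37 to 0.25) and by -0.24 for PPARG (-0.50 to 0.03). In the limma test these had adjusted p-values of 0.975, 0.854 and 0.255, in the order of the genes above. Against the parental array, PPARD was higher in 9 of 9 lines, as were 14.0% of all clusters, and only by 0.03 to 0.63, which is within 2-fold. PPARA and PPARG each had 3 lines above and 6 below the parental array.

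**Figure D1:**
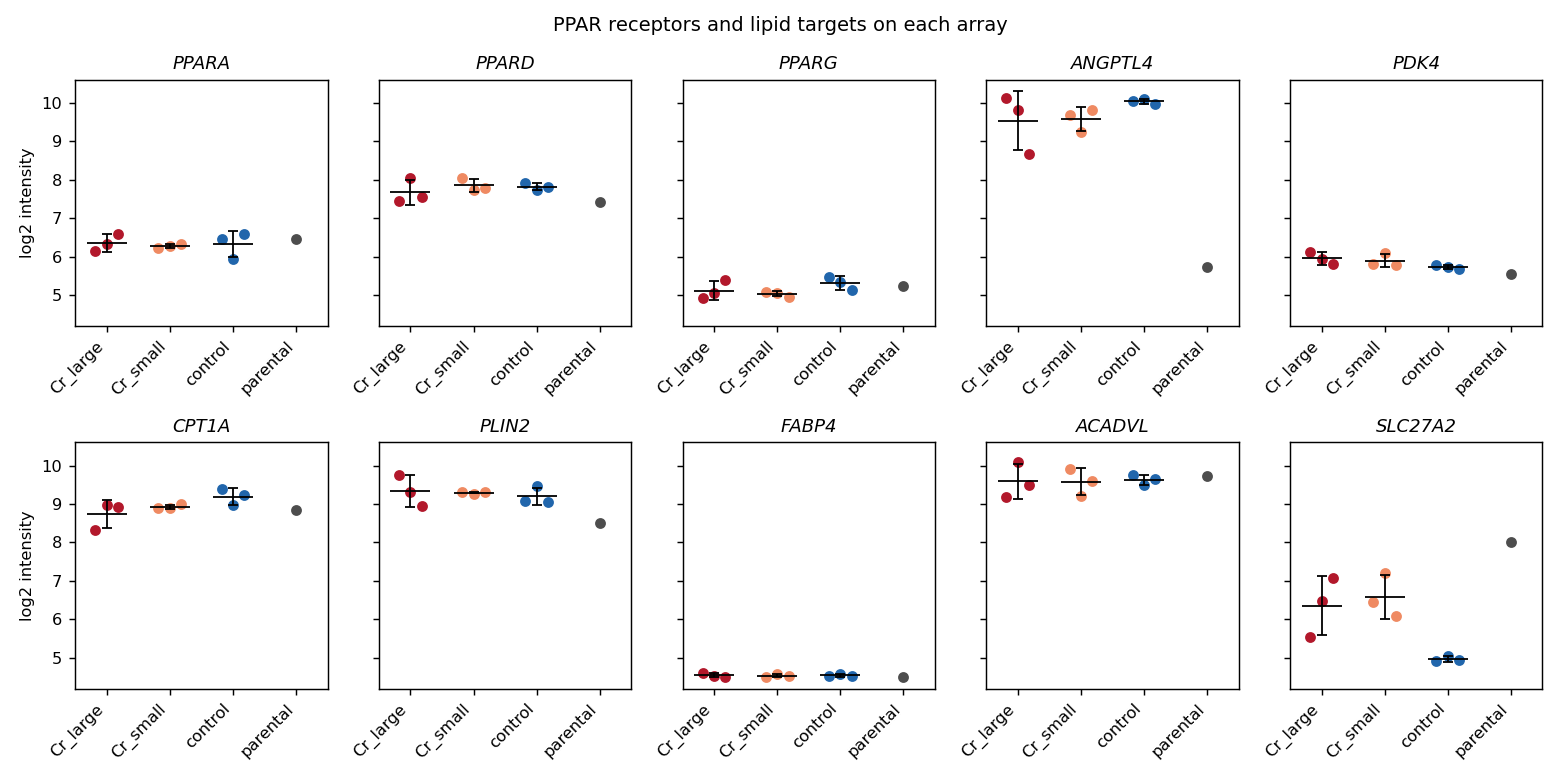
Log2 intensity of the 3 receptors and 7 targets on each of the 10 arrays, 1 panel a gene on a common axis; points are lines, horizontal strokes the group means and bars the SD of 3 lines (parental cells had 1 array). ANGPTL4 stood between 8.66 and 10.13 in the 9 lines against 5.72 in parental cells, and SLC27A2 between 4.90 and 7.19 against 8.02.

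ANGPTL4 was the cluster farthest above the parental array in each of the 3 soft agar groups, rank 1 of 28869. It was at 10.13, 9.81 and 8.66 in Cr_large lines, 9.68, 9.23 and 9.82 in Cr_small lines, 10.04, 10.11 and 9.96 in control lines and 5.72 in parental cells. The lines did not overlap with the parental array, and the lowest of them, Cr_large 3, still lay 2.95 above it. The group means were 9.54 ± 0.77, 9.57 ± 0.30 and 10.04 ± 0.07 (SD, n = 3 each), which is 14.1-fold, 14.5-fold and 20.0-fold the parental level in Cr_large, Cr_small and control lines. These folds describe how the gene was picked and are given as a description only. The 3 groups are compared with the same parental array.

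The high level was found in the control lines, which had no chromate, as well as in the Cr lines. ANGPTL4 differed by -0.48 between Cr and control lines (SE 0.30, 95% confidence interval -1.16 to 0.21), and the limma test gave an adjusted p of 0.387. The Cr lines spread more than the control lines, over a range of 1.47 in 6 Cr lines against 0.14 in 3 control lines. The difference in spread was not tested.

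Of the other targets, PLIN2, the coat protein of lipid droplets in most cell types, lay next above the parental array. It was at 9.76, 9.32 and 8.94 in Cr_large lines, 9.31, 9.27 and 9.31 in Cr_small lines, 9.08, 9.46 and 9.04 in control lines and 8.50 in parental cells. All 9 lines were above the parental array, by 0.44 to 1.26, and the group means were 1.79-fold, 1.73-fold and 1.61-fold the parental level in Cr_large, Cr_small and control lines. Of all clusters, 14.0% had their 9 lines above the parental array, and 0.769% were at least 1.5-fold above it in all 3 groups. PLIN2 did not separate Cr from control lines, with a difference of 0.12 (SE 0.17, interval -0.27 to 0.51, limma adjusted p = 0.746).

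PDK4, a kinase that turns off pyruvate dehydrogenase and so spares glucose when fat is burnt, was at 6.13, 5.94 and 5.80 in Cr_large lines, 5.80, 6.09 and 5.79 in Cr_small lines, 5.78, 5.73 and 5.68 in control lines and 5.55 in parental cells. Its 9 lines were all above the parental array, by 0.13 to 0.58, where 14.0% of all clusters had their 9 lines above it. All 6 Cr lines lay above all 3 control lines, a separation that 16.7% of clusters showed in one direction or the other. The difference between Cr and control lines was 0.19 (SE 0.09, interval -0.02 to 0.40) and did not pass the limma test, with an adjusted p of 0.246.

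CPT1A, which carries long-chain fatty acids into mitochondria and sets the pace of their oxidation, was at 8.32, 8.98 and 8.92 in Cr_large lines, 8.90, 8.89 and 8.99 in Cr_small lines, 9.39, 8.96 and 9.22 in control lines and 8.84 in parental cells. Cr_large 1 was the only line below the parental array, and the Cr and control lines overlapped. The difference between Cr and control lines was -0.36 (SE 0.15, interval -0.71 to 0.00), with a limma p of 0.0502 before and 0.206 after adjustment.

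ACADVL, the first enzyme of mitochondrial oxidation of very long chains, was at 9.19, 10.08 and 9.48 in Cr_large lines, 9.91, 9.22 and 9.60 in Cr_small lines, 9.75, 9.49 and 9.64 in control lines and 9.73 in parental cells. The parental array lay inside the range of each group of lines. Cr and control lines differed by -0.04 (SE 0.21, interval -0.53 to 0.44, limma adjusted p = 0.939). FABP4, the fatty acid carrier of adipocytes, was between 4.48 and 4.60 on all 10 arrays, in the dimmest 25% of clusters, and no group stood apart. Changes at such a level are compressed by the normalization.

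SLC27A2 went the other way from ANGPTL4. It encodes a long-chain fatty acid transporter and very long-chain acyl-CoA synthetase, best known from liver and kidney, where PPARA induces it. SLC27A2 was at 5.53, 6.47 and 7.07 in Cr_large lines, 6.46, 7.19 and 6.08 in Cr_small lines, 4.90, 5.05 and 4.93 in control lines and 8.02 in parental cells. Every line was below the parental array, with differences of -3.12 to -0.82, where 11.9% of all clusters had their 9 lines below it. Every Cr line was above every control line, a separation that 16.7% of all clusters showed in one direction or the other.

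The group means of SLC27A2 were 6.36 ± 0.78 in Cr_large, 6.58 ± 0.57 in Cr_small and 4.96 ± 0.08 in control lines (SD, n = 3 each). They were 3.16-fold, 2.71-fold and 8.32-fold lower than the parental level in Cr_large, Cr_small and control lines. The control lines were close to 4.92, the level below which 25% of cluster means lie, where the constant added in the normalization makes folds smaller. SLC27A2 was 1.51 higher in the 6 Cr lines than in the 3 control lines, or 2.84-fold (SE 0.34, 95% confidence interval 0.71 to 2.30, limma adjusted p = 0.0283). It passed in Cr_small against control lines at 3.07-fold (adjusted p = 0.0455) and did not in Cr_large against control lines at 2.63-fold (adjusted p = 0.0800). These comparisons share the 3 control lines, and Cr_large and Cr_small differed by -0.22 (interval -1.14 to 0.69). The call was near the threshold. Without control line 1, 2 or 3 the adjusted p was 0.0992, 0.0721 or 0.0998, without Cr_large 2 it was 0.0596 and without Cr_small 1 it was 0.0526, while the difference stayed between 1.33 and 1.71 with any single line left out. The call in Cr_small against control lines was lost in 7 of 9 fits that left out 1 line, all but those without Cr_large 1 or Cr_large 3, and also with a replicate block and by the methods' t-test after adjustment.

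**Figure D2:**
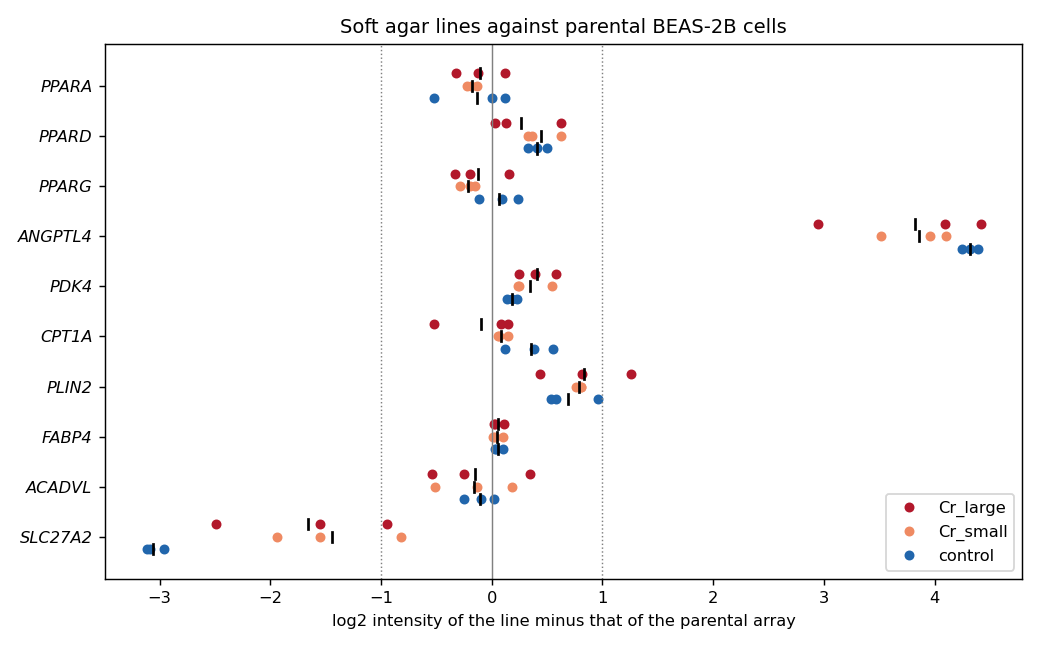
Log2 intensity of each of the 9 soft agar lines minus that of the single parental array, for the 10 genes; strokes are group means and dotted lines mark 2-fold. ANGPTL4 lay 2.95 to 4.42 above and SLC27A2 below the parental array (differences of -3.12 to -0.82), and the other 8 genes had all their group means within 2-fold.

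Counted together, 2 of the 10 genes were at least 2-fold from the parental array in the same direction in all 3 groups, ANGPTL4 above and SLC27A2 below. Over all clusters the share was 0.343%, of which 42 were above and 57 below. Since ANGPTL4 was picked for this contrast, its part in the count is no result. No other target followed it past 2-fold, and PLIN2 followed it past 1.5-fold. At 1.5-fold 3 of the 10 genes were off the parental array in the same direction in all 3 groups, where 1.80% of all clusters were. The median difference of the 10 genes from the parental array was -0.02 in Cr_large, 0.07 in Cr_small and 0.13 in control lines. In Cr against control lines 1 of the 10 genes passed the test, where 11.0% of all clusters did, and the median difference of the 10 was -0.03 against 0.01 for all clusters. The share of clusters called was 7.44% in Cr_large against control lines, with 0 of the 10 genes, and 8.26% in Cr_small against control lines, with 1 of the 10. Between Cr_large and Cr_small lines none of the 10 passed, with differences of -0.22 to 0.08. No cluster of the table passed that limma comparison (0%), although 1266 clusters, 4.39%, had an unadjusted p under 0.05.

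**Figure D3:**
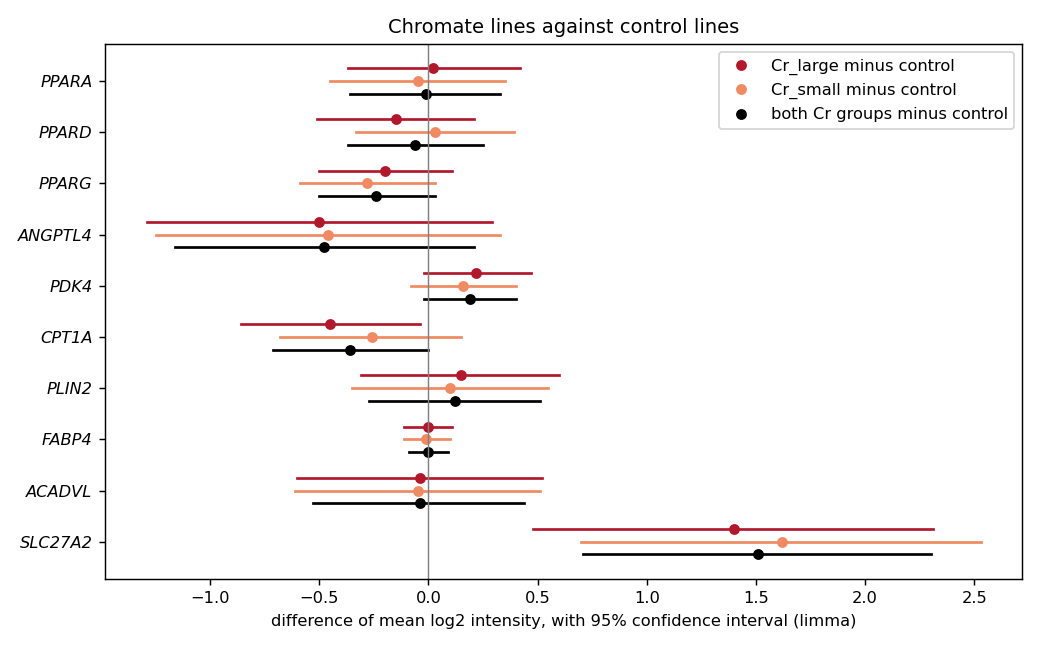
Difference of mean log2 intensity for Cr_large, Cr_small and both Cr groups together, each minus the control lines, with the 95% confidence interval from limma. SLC27A2 lay 1.40 to 1.62 above the control lines, and of the other 9 genes only CPT1A in Cr_large had an interval that left out 0, with an adjusted p of 0.201.

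The levels of ANGPTL4, PLIN2 and SLC27A2 were set side by side in the 6 Cr lines, and no pair of the 10 genes held after adjustment. Cr_large 3 had the lowest ANGPTL4 at 8.66 and the lowest PLIN2 at 8.94, with SLC27A2 at 7.07. Cr_large 1 had the highest ANGPTL4 at 10.13 and the highest PLIN2 at 9.76, and the lowest SLC27A2 of the Cr lines at 5.53. Over the 6 Cr lines Pearson's r was -0.869 between ANGPTL4 and SLC27A2 (exact permutation p = 0.0264, Spearman's rho -0.886, exact permutation p = 0.0333, both two-sided). It was 0.879 between ANGPTL4 and PLIN2 (exact permutation p = 0.0306, rho 0.829, exact permutation p = 0.0583). Without the 2 lines farthest from the median of ANGPTL4, Cr_large 3 and Cr_small 2, r was -0.926 and 0.943 over 4 lines. In these 4, PLIN2 was at 9.76 in Cr_large 1 and between 9.31 and 9.32 in the others, so its value of 0.943 rested on Cr_large 1. ANGPTL4 and PPARG gave r of -0.909 (exact permutation p = 0.0153, rho -0.943, exact permutation p = 0.0167). This rested on Cr_large 1 and 3, since r was -0.31 without them, which are not the same 2 lines as those left out above. These are 3 of 45 pairs computed, picked after their values were seen, and none of the 45 held after Benjamini-Hochberg adjustment over the 45 (adjusted p = 0.229 for each r of the 3 pairs, and 0.5 or 0.51 for rho). Neither Cr group alone has enough lines for a value of its own.

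**Figure D4:**
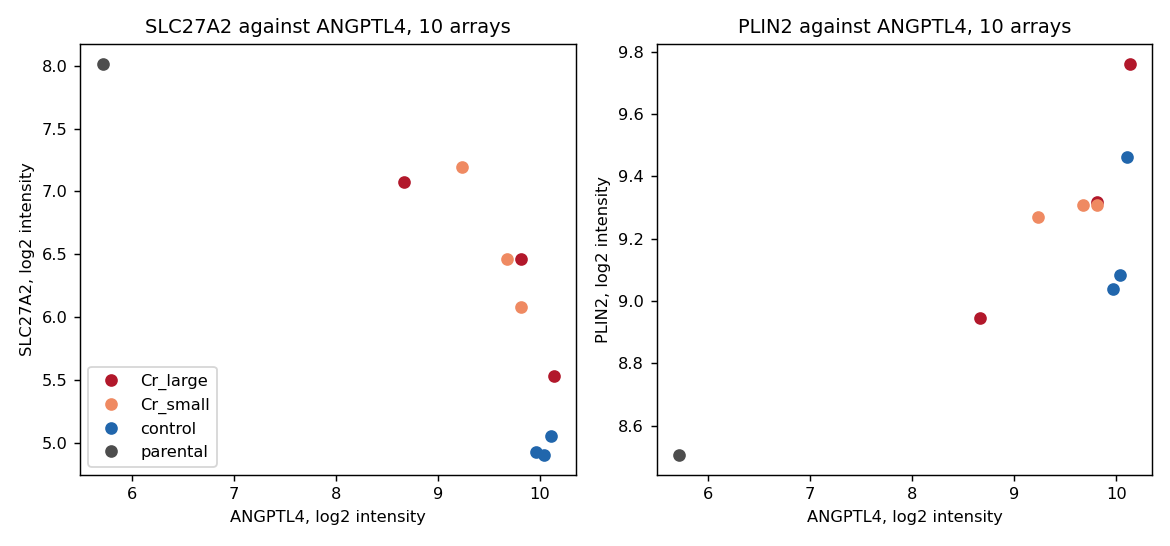
Log2 intensity of SLC27A2 (left) and PLIN2 (right) against that of ANGPTL4, 1 point for each of the 10 arrays. Among the 6 Cr lines SLC27A2 lay lower where ANGPTL4 was higher (r = -0.869) and PLIN2 lay higher (r = 0.879), while the 3 control lines sat together at an ANGPTL4 level of 9.96 to 10.11 and the parental array at 5.72.

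The rest of the PPAR pathway was read from lists of its partners and of genes for taking up, burning and storing fat. Of 108 listed genes, 93 were measured by a cluster of their own, and the other 15 were not analysed here. In Cr against control lines 7 of the 93 rose, 5 fell and 81 did not pass the limma test, where 5.33% of all clusters rose and 5.72% fell. The median difference of the 93 was 0.03.

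Of 10 partners and cofactors 1 rose, 1 fell and 8 did not pass, with a median of 0.00. MED1, the Mediator subunit through which these receptors reach RNA polymerase, was at 9.96, 10.19 and 10.12 in Cr_large, 9.94, 10.39 and 10.05 in Cr_small and 9.58, 9.32 and 9.63 in control lines, a rise of 0.60 (SE 0.11, limma adjusted p = 0.0140). The gene that fell was LPIN1, a phosphatidate phosphatase and coactivator of PPARA, by 0.52. RXRA, the common partner of all 3 receptors, differed by 0.21 (adjusted p = 0.168).

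Of 15 genes for uptake and binding of fatty acids 1 rose, 1 fell and 13 did not pass, with a median of 0.03. ACSL4, an acyl-CoA synthetase that prefers arachidonic acid, was between 10.52 and 10.74 in Cr lines and at 11.29, 11.30 and 11.51 in control lines, with 10.52 in parental cells. It fell by 0.73 in Cr against control lines (SE 0.07, limma adjusted p = 7.36e-04), and the Cr lines lay near the parental level. SLC27A1, the transporter that rose, did so by 0.30.

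Of 21 genes of mitochondrial beta oxidation and its control 4 rose, 3 fell and 14 did not pass, with a median of -0.08. Of those that rose, 3 are no oxidation enzymes. PDK1 and PDK3 are kinases of pyruvate dehydrogenase like PDK4, and UCP2 is a carrier of the inner mitochondrial membrane. UCP2 was at 9.64, 9.52 and 8.95 in Cr_large, 9.40, 8.76 and 9.14 in Cr_small, 7.53, 7.54 and 7.93 in control lines and 8.07 in parental cells, a rise of 1.57 or 2.96-fold over control lines (SE 0.19, adjusted p = 0.00229). PDK3 rose by 0.71 (adjusted p = 0.00450) and PDK1 by 0.59 (adjusted p = 0.0334). The 4 that rose also held ACADSB, an acyl-CoA dehydrogenase for short branched chains, by 0.57. HADH, ETFDH and ETFA, which oxidize fatty acyl-CoA or pass its electrons on, fell by 0.44, 0.55 and 0.39.

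In the list of peroxisome genes 0 of 11 passed, in that of the lipid droplet 0 of 13 and in that of lipoproteins, ketone and sterol enzymes 0 of 13, with medians of 0.03, 0.11 and 0.02. Of 10 adipocyte genes 1 rose and 9 did not pass, with a median of 0.10. The gene that rose was SCD, the desaturase that makes oleic acid and is also a target of the sterol factor SREBP. SCD was at 9.56, 9.50 and 10.39 in Cr_large, 9.51, 10.03 and 9.93 in Cr_small, 8.69, 8.41 and 8.93 in control lines and 10.26 in parental cells, so that Cr lines were 2.21-fold above control lines (adjusted p = 0.0156). The group means of SCD had the order of parental cells above Cr lines above control lines, as those of SLC27A2 did. FADS2 of the same list, which did not pass, had it too. It was at 9.63 in Cr_large, 9.74 in Cr_small and 8.87 in control lines on average and 10.47 in parental cells. How many of all clusters had this order was not counted.

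Against the parental array, 1 of the 93 pathway genes was at least 2-fold off in the same direction in all 3 groups, where 0.343% of all clusters were. That was PLTP, the phospholipid transfer protein of plasma, at 5.79 in Cr_large, 5.89 in Cr_small and 5.85 in control lines on average and 6.97 in parental cells. No gene of the 93 was 2-fold above it in all 3 groups, as ANGPTL4 was. At 1.5-fold there were 8 of 93, against 1.80% of all clusters, of which ACSL1 and G0S2 were above and FABP3, CPT1C, PDK2, LPL, PLTP and FADS2 below. G0S2, an inhibitor of fat breakdown in droplets and a known target of the receptors, was at 8.64, 8.76 and 7.38 in Cr_large, 8.82, 8.60 and 9.59 in Cr_small, 7.82, 7.54 and 7.83 in control lines and 6.85 in parental cells. Cr_large 3, the line with the lowest ANGPTL4 and PLIN2 of the Cr lines, also had the lowest G0S2 of all 9 lines. LPL, the lipase that ANGPTL4 inhibits, was lower than the parental level of 6.69 by 0.72 to 0.83 (differences of -0.75, -0.72 and -0.83 in Cr_large, Cr_small and control lines).

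**Figure D5:**
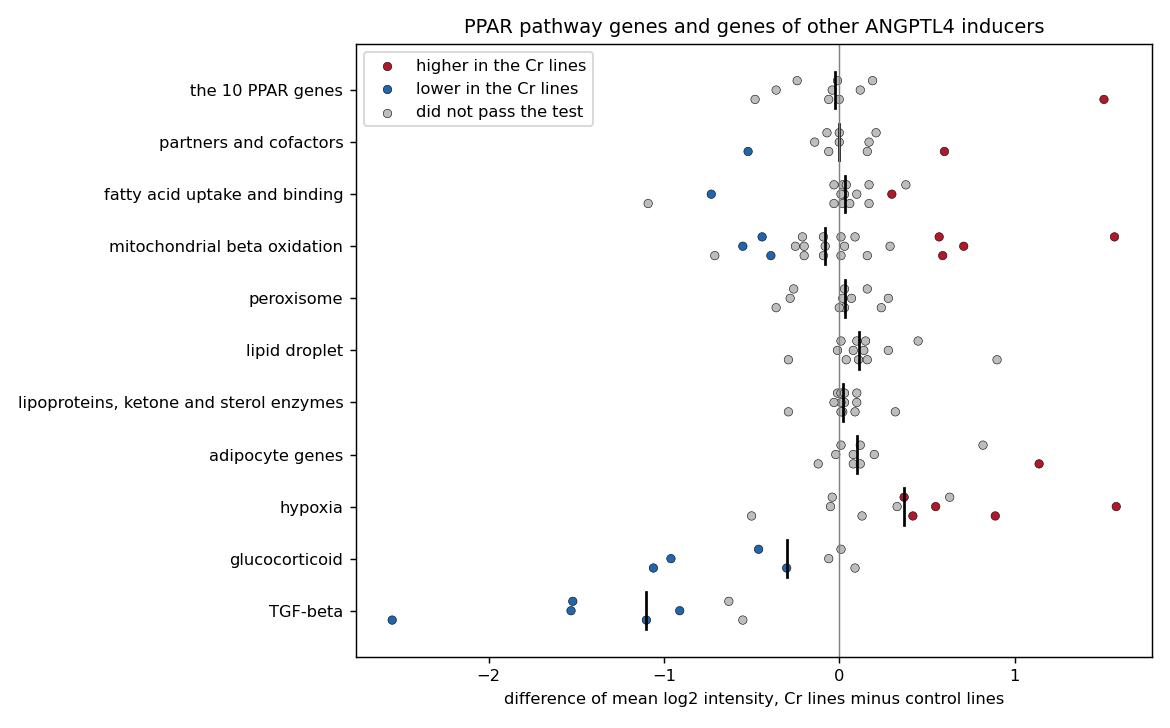
Difference of mean log2 intensity, Cr lines minus control lines, for the 10 genes, the 7 PPAR pathway lists and the 3 lists of genes that answer to other signals known to induce ANGPTL4; each point is a gene and strokes are medians of a list. The medians of the pathway lists lay between -0.08 and 0.11, those of the hypoxia, glucocorticoid and TGF-beta lists at 0.37, -0.30 and -1.10.

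Lists of genes that answer to other known inducers of ANGPTL4 were read in the same way, against the 5.33% of all clusters that rose and the 5.72% that fell. Of 11 hypoxia genes 5 rose in Cr against control lines, 0 fell and 6 did not pass, with a median of 0.37, and the summed linear intensity of the list ran from 7770 to 10600 in Cr lines and from 5030 to 6710 in control lines, with 4620 in parental cells. ADM, the vasodilator peptide adrenomedullin, rose by 1.58 (adjusted p = 0.00289) and HK2, a hexokinase of glycolysis, by 0.89 (adjusted p = 0.0221). Of 7 glucocorticoid genes 0 rose, 4 fell and 3 did not pass, with a median of -0.30 and sums of 1400 to 1850 in Cr lines and 1800 to 2030 in control lines, with 1640 in parental cells. SGK1, a kinase of ion transport, fell by 1.06 (adjusted p = 0.00667) and TSC22D3, the leucine zipper protein GILZ, fell by 0.96 (adjusted p = 0.00189).

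Of 7 TGF-beta genes 0 rose, 5 fell and 2 did not pass, with a median of -1.10. Their sums were 4360 to 5620 in Cr lines, 8650 to 10500 in control lines and 4500 in parental cells. PMEPA1, a membrane protein that dampens the TGF-beta signal, was between 6.17 and 6.95 in Cr lines, at 9.21, 8.93 and 9.32 in control lines and at 6.97 in parental cells, and fell by 2.55 (adjusted p = 1.58e-04). BHLHE40 fell by 1.53, LTBP2 by 1.52 and TGFBI by 1.10. Against parental cells the median of the list was 0.33 in Cr_large, 0.18 in Cr_small and 1.34 in control lines, that of the hypoxia list 0.31, 0.24 and 0.08, and that of the glucocorticoid list 0.09, 0.03 and 0.20. The part of these signals in the level of ANGPTL4 was not tested.

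The 5 genes whose levels over the 10 arrays were most like those of ANGPTL4, among 2628 genes with an SD of at least 0.3, were FOXD1, MT2A, DUSP6, ELK3 and VEGFC. Their Pearson's r was 0.967, 0.965, 0.957, 0.957 and 0.953 in that order, and over the 9 lines without the parental array 0.806, 0.674, 0.750, 0.835 and 0.777. All share 1 low parental array, which weighs most in the values over 10. FOXD1, a forkhead factor, was between 9.06 and 9.94 in the lines and at 8.08 in parental cells, and VEGFC, a growth factor of lymph vessels, was between 8.98 and 9.91 in the lines and at 8.05 in parental cells. ANGPTL4 itself and the PPAR genes with an SD under 0.3 could not enter this comparison, so their absence from the 5 is no result. Whatever their SD, the other PPAR gene with the highest r was PLIN2, at 0.81 over the 10 arrays and 0.55 over the 9 lines. SLC27A2 ran the other way, with r of -0.79 over the 10 arrays and -0.82 over the 9 lines.

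The label of the cells was read against marker genes. The keratins KRT8, KRT18 and KRT7 were bright, at 12.05, 11.53 and 10.92 in parental cells. The epithelial genes KRT5, EPCAM and CDH1 were at 5.48, 5.28 and 4.91 there, below the median cluster at 5.87. Of these only CDH1 was near 4.92, the level below which 25% of clusters lie. KRT8, KRT18 and KRT7 rose in Cr against control lines, 3 of the 7 airway line markers measured out of 9 listed. Over all clusters 5.33% rose and 5.72% fell. The summed linear intensity of the 7 markers was 11200 to 15500 in Cr lines and 7570 to 9470 in control lines, with 9440 in parental cells. Of 5 markers each of adipocytes, endothelium, macrophages and fibroblasts 0 passed, and of 5 of hepatocytes, where SLC27A2 is abundant, 1 fell, SERPINA1. The sums of the hepatocyte markers were 199 to 228 in Cr lines and 251 to 282 in control lines, with 217 in parental cells, and ALB was in the dimmest 25% of clusters. The sums were 237 to 263 in Cr lines, 230 to 249 in control lines and 281 in parental cells for adipocyte markers, and 160 to 167, 154 to 159 and 162 for those of endothelium. They were 334 to 518, 346 to 365 and 375 for macrophage markers and 1590 to 3620, 1450 to 5350 and 1930 for fibroblast markers, mostly COL1A1. The part of these shifts in the level of SLC27A2 was not tested. The medians of the 10 arrays lay between 5.82 and 5.90, and the number of arrays sets the limit on precision.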

How the data were processed

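RNA of 10 cell lines was measured on 1 array each. The deposited intensity values were made by the authors with RMA16 in GeneSpring, with background correction, quantile normalization and a summary of the probes in each transcript cluster. They are linear, from 20.0 to 16979.5, not set to a baseline, and no genome build is given in the sources used here. Log2 was taken, which had been planned for if the values were linear. The constant that RMA16 adds compresses folds at low intensity. Clusters were named by the array annotation, in which 1752 of 28869 had several symbols and 7807 none.

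A linear model with 4 group means was fitted by limma 3.58.1 under R 4.3.3 (6 residual and 1.96 prior degrees of freedom). The Benjamini-Hochberg adjustment ran over every cluster of the table, and a cluster was called under an adjusted p of 0.05. Distances from the single parental array rest on a fold of 2, with 1.5 as an alternative. The genes and lists were chosen with earlier results of these data known. Named were all 10 genes, up to 4 genes of a list called at 1.5-fold or more, those 2-fold from parental cells in all 3 groups and the 5 most like ANGPTL4. Other genes named from the lists, LPIN1, RXRA, SLC27A1, ACADSB, HADH, ETFDH, ETFA, G0S2, LPL and those past 1.5-fold from parental cells, were picked after their values were seen. Promoter windows are those of RefSeq, GRCh38.p14. Python 3.11.15 and matplotlib 3.10.9 drew the figures.

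The alternatives were the methods' t-test, limma with a trend and robust moderation, only the arrays compared, no dim clusters, only clusters with 1 symbol, quantile normalization again, centring on the median, a mean over a gene's clusters, a replicate block, limma contrasts with the parental array and each line left out. The limma step was also run on simulated data in which each cluster had the same spread in every group. The SDs of SLC27A2 differed between groups, so that run does not bear on its call.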

Additional observations from a re-analysis of the deposited data

Results flagged for a closer look

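Within the 6 Cr lines, 2 of the 10 genes had a line set apart from the other 5 by Dixon's ratio, which chance alone exceeds in about 1 of 20 groups. CPT1A in Cr_large 1 was at 8.32 where the other 5 Cr lines lay between 8.89 and 8.99 (ratio 0.858), and this line was also the only one below the parental level of CPT1A. PPARG in Cr_large 3 was at 5.39 where the others lay between 4.91 and 5.09, with a ratio of 0.626, just past the critical value for 6 samples. Both genes overlapped with the control lines.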

How the results depend on the processing

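The SLC27A2 difference between Cr and control lines kept its sign under every alternative run, from 1.33 to 1.71, with adjusted p from 0.00836 to 0.0998. The methods' t-test after Benjamini-Hochberg called 0 of the 10 genes in Cr against control lines (SLC27A2 at 0.0568) and 0 in Cr_small against control lines, and with single lines left out each of these counts was 0 to 1. In Cr_large against control lines SLC27A2 made the count 1 by the unadjusted t-test and 1 without the dimmest 25% of clusters, and 0 to 1 with lines left out. It was called there without Cr_large 1. Pathway genes called were 12, against 29 by the unadjusted t-test (18 higher, 11 lower), 7 after its Benjamini-Hochberg adjustment, and 8 to 14 with lines left out. Where a control or Cr group kept 2 lines, limma pooled the spread. The cause of these moves was not tested.

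Limma contrasts that take the parental array to vary like the lines called 1 of the 10 genes in all 3 groups, the one picked for this contrast, and 2 of the pathway genes, FABP3 and ACSL1. With 1 parental array this is no independent support. Pathway genes off the parental array were 8 at 1.5-fold in place of 1 at 2-fold, and 0 to 1 with lines left out, 0 without Cr_small 2 or control 2. The sign turned only for differences near 0, that of FABP4 (0.00 when normalized again, -0.02 to 0.02 with lines left out), PPARA (-0.21 to 0.11) and ACADVL (-0.17 to 0.05). Same-numbered lines of different groups were checked for pairing, and their residuals correlated from -0.145 to 0.0984 in 9 pairs. No pairing by number was seen, but lines of different number were not compared, so the check cannot exclude a pairing. A fit with the number as a replicate block called 2783 clusters in place of 3190, and 0 of the 10 genes in Cr_small against control lines. Over all settings run, 100 counts stayed within 1.5 times their value and 25 did not, and of the differences of single genes 171 kept their sign and side of the threshold, 12 turned sign and 6, all of SLC27A2, lost the call.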
